A study of Rattus norvegicus with 12 samples.

Results

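The comparison described here sets the lesioned striatum of rats given L-DOPA with zonisamide against the lesioned striatum of rats given saline. It takes in 6 of the 12 arrays of the study, 3 per group, chosen by their labels alone. All animals were male Wistar rats in which 6-hydroxydopamine (6-OHDA), a toxin taken up by dopamine neurons, had been injected on the left into the medial forebrain bundle, their path to the striatum. Rats were kept if they made 7 or more turns a minute under methamphetamine (3 mg/kg), so both groups share the toxin, the surgery and that challenge. Starting 7 days after the challenge, the L-DOPA with zonisamide group received L-DOPA at 100 mg/kg once a day for 7 days, 30 min after benserazide, which blocks decarboxylation outside the brain, with zonisamide at 50 mg/kg given 30 min after the L-DOPA. The lesioned saline group received saline over the same days. The other groups, used here only for values set beside these, are lesioned striatum after L-DOPA alone at the same dose and the non-lesioned striatum of saline rats. The labels give neither the age of the rats nor the time between the last injection and tissue collection. Each array is labelled as a separate replicate, and 3 animals were assigned to each group.

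The striatum is the main input station of the basal ganglia and consists mostly of spiny projection neurons. Those of the direct pathway carry the D1 dopamine receptor and make dynorphin and substance P, and those of the indirect pathway carry the D2 receptor and make enkephalin. After loss of dopamine the direct pathway becomes oversensitive to D1 stimulation, and repeated L-DOPA, the precursor of dopamine, raises dynorphin precursor RNA in animals with involuntary movements. Zonisamide is an antiepileptic drug that is also used with L-DOPA in Parkinson's disease. It is known to block voltage-gated sodium channels and T-type calcium channels, and to inhibit carbonic anhydrases and monoamine oxidase B.

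Levels below are log2 signals minus that of the array's own 75th percentile, which was 1097, 1737 and 793 intensity units on the L-DOPA with zonisamide arrays and 1062, 1424 and 1481 on the lesioned saline arrays. On these 6 arrays the share of probes well above background ran from 67.7% to 74.0%. The spread of replicate spots ran from 3.74% on replicate 3 of lesioned saline, the only array whose overall quality result was in range, up to 27.8% on the third array of L-DOPA with zonisamide. The number of arrays limits the precision of every value. Changes are given with limma's standard error (SE) over 3 arrays per group, in one model of all 12 arrays.

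Markers of neighbouring tissue showed that replicates 1 and 3 of L-DOPA with zonisamide stood apart from the rest of their group. Slc17a6, the vesicular glutamate transporter of thalamic neurons, was at 2.52, -5.84 and -5.75 on the L-DOPA with zonisamide arrays and at -2.88, -3.36 and -5.60 on the lesioned saline arrays. Prkcd, a protein kinase C abundant in thalamus, was at 3.44, -0.38 and 0.01 with both drugs and at -0.14, -0.45 and -0.25 with saline. Replicate 1 was thus the high array for both genes, as it was for the cortical transcription factor Neurod6 (-2.71, against -6.91 and -5.80 on the other arrays of its group). Not all members of these lists were higher with both drugs. Of 5 thalamic, septal and pallidal genes tested 3 were higher and 2 lower (median 0.51; -0.22 without replicate 1). Of 6 cortical genes tested 3 were higher and 3 lower (median -0.01; -0.67 without replicate 1). Replicate 3 was the high array for the choroid plexus, which lines the ventricles. Ttr (transthyretin), its most abundant transcript, was at 4.28, 2.72 and 6.67 with both drugs and at -0.74, 4.35 and 3.30 with saline. Of the 15 choroid plexus markers 11 were tested; all 11 had a higher mean with both drugs (median log2 change 0.79), and without replicate 3 the split was 6 higher and 5 lower (median 0.05). For the results below, values are given without these arrays where that moved them, and counts with Ttr as a covariate; the part of the markers was not tested further.

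**Figure D1:**
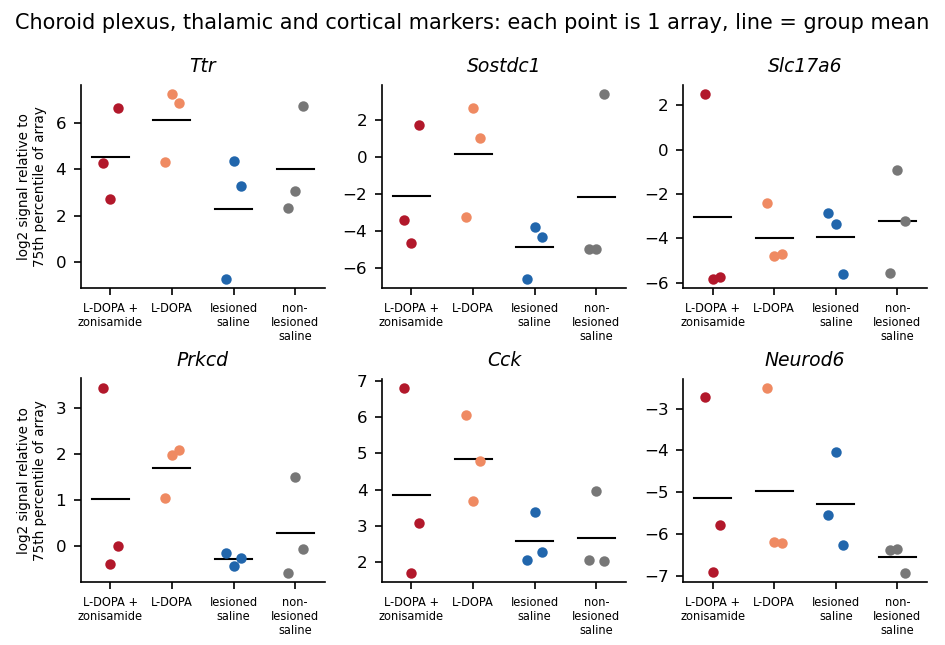
Log2 signal relative to each array's 75th percentile (y axis) of 2 choroid plexus markers, Ttr and Sostdc1, and 4 thalamic or cortical markers, with 1 point per array and the group mean as a line. Replicate 1 of L-DOPA with zonisamide is the highest point for Slc17a6 (2.52) and Prkcd (3.44), and replicate 3 is the highest of its group for Ttr (6.67).

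The comparison asks which striatal transcripts differ after both drugs together from those of untreated lesioned striatum. No feature passed at an adjusted p under 0.05 among 19122 tested (0% called; 0 higher and 0 lower by limma with Benjamini-Hochberg adjustment), and the lowest adjusted p was 0.183. At an unadjusted p under 0.05, 1416 features differed (7.41% of those tested), 374 higher (1.96%) and 1042 lower (5.45%). The excess of lower values depended on the scaling: with quantile normalization the split was 786 higher and 634 lower, and with normexp and quantile normalization 829 higher and 544 lower. The median log2 change of all features was -0.05 as scaled here and 0.07 under either of these scalings, and the list medians below are best read against it. The 3 arrays of one group lay wholly apart from those of the other for 18.4% of features, 6.59% with both drugs higher and 11.8% with both drugs lower. Without replicate 3 of L-DOPA with zonisamide 936 features had an unadjusted p under 0.05. Without replicate 3 of lesioned saline the count was 590, and adding the 12-array level of Ttr to the model left 833. The genes below are therefore described by their values, and none of their differences from lesioned saline passed the test. In bulk tissue, fewer cells of a type and less RNA per cell cannot be told apart.

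The smallest p-values belonged to a pair of Kruppel-like transcription factors, Klf4 and Klf2, which are induced by growth factors, activity and blood flow in several cell types. Klf4 was at -3.32, -3.24 and -3.09 with both drugs and at -1.71, -2.24 and -1.86 with saline. Klf2 was at -4.96, -5.0 and -4.61 with both drugs and at -3.51, -3.57 and -3.25 with saline. The groups did not overlap for either gene, and the spread within each group was well under the gap between them. Both genes were picked by smallest p, which by itself favours such a gap. The log2 change was -1.28 ± 0.16 for Klf4 and -1.41 ± 0.19 for Klf2 (both adjusted p = 0.183, limma), which puts Klf4 at 0.411 and Klf2 at 0.376 of the saline level. Between the arrays of replicate 1, which shared a slide, the difference was -1.61 for Klf4 and -1.44 for Klf2, and between those of replicate 2, on another slide, it was -1.01 for Klf4 and -1.43 for Klf2. L-DOPA alone gave nearly the same levels: Klf4 was at -3.28, -3.37 and -3.22 and Klf2 at -5.21, -5.15 and -4.84. In that comparison both genes fell (-1.36 ± 0.16 and -1.62 ± 0.19, both adjusted p = 0.016, limma), and 57 of the 19122 features passed (0.298%). The test of L-DOPA with zonisamide against L-DOPA gave 0.07 ± 0.16 for Klf4 (adjusted p = 0.91) and 0.21 ± 0.19 for Klf2 (adjusted p = 0.72).

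Among the other lower genes with the smallest p, Fst, which encodes the activin-binding protein follistatin, was at -0.35, -0.50 and 0.36 with both drugs and at 1.55, 1.07 and 1.47 with saline (-1.53 ± 0.24, adjusted p = 0.277, limma). The non-lesioned striatum had Fst at -0.34, -0.38 and -0.28, so that the arrays with both drugs lay near it and the saline arrays above. Igsf7 l1, an immunoglobulin superfamily gene, had a log2 change of -1.51 ± 0.24 against saline, and with L-DOPA alone the gene fell (-2.41 ± 0.24, adjusted p = 0.0096). Its mean was -5.26 with both drugs, -3.75 with saline and -5.79 on the non-lesioned side. Tnni2, which encodes a fast skeletal troponin I, had a change of -1.21 ± 0.19, and Upb1, a ureidopropionase of pyrimidine breakdown, one of -1.42 ± 0.28. Or2av9, named as an olfactory receptor, was well above background on 2 of the 3 arrays with both drugs and had a change of -2.04 ± 0.40. Its mean was -3.98 with saline, against -6.02 with both drugs, -5.94 with L-DOPA alone and -5.95 on the non-lesioned side. The genes of smallest p, here and below, were chosen for their difference from these same saline arrays. That choice by itself favours saline lying apart from the other groups.

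A pair of the lower genes set L-DOPA with zonisamide apart from L-DOPA alone as well. Hes1, the transcriptional repressor downstream of Notch, was at -7.84, -7.18 and -6.65 with both drugs, where 1 of 3 arrays was well above background. It was at -4.93, -4.90 and -4.68 with saline and at -3.66, -5.56 and -4.01 with L-DOPA alone. On the non-lesioned side its mean was -6.67, also with 1 of 3 arrays well above background. Its log2 change was -2.38 ± 0.47 against lesioned saline (adjusted p = 0.476, limma), and against L-DOPA it fell by 2.81 ± 0.47 (adjusted p = 0.048). Tmem243, a membrane protein of little known function, was at -3.01, -2.90 and -3.10 with both drugs and at -2.23, -2.01 and -2.31 with saline. The change was -0.82 ± 0.15 against saline and -1.18 ± 0.15 against L-DOPA, where it passed (adjusted p = 0.022). In the comparison with L-DOPA 65 of the 19122 features passed (0.340%).

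On the other side, Spmip8, a sperm microtubule inner protein, had the smallest p among named genes that were higher. It was at -1.42, -1.74 and -1.27 with both drugs and at -2.69, -2.55 and -2.39 with saline (1.07 ± 0.18, adjusted p = 0.305, limma). With L-DOPA alone it was at -2.65, -2.62 and -2.42, like saline, and the test against L-DOPA passed (1.09 ± 0.18, adjusted p = 0.046). The non-lesioned side was at -1.99, -1.52 and -1.63, closer to the arrays with both drugs. Bhlhe40, a transcriptional repressor induced by activity and part of the circadian clock, was at -2.49, -2.92 and -2.71 with both drugs and at -3.99, -3.63 and -4.03 with saline (1.17 ± 0.21). Sntg2, which encodes the scaffold protein syntrophin gamma 2, was at -2.84, -3.16 and -2.92 with both drugs and at -3.83, -3.59 and -4.16 with saline (0.88 ± 0.17). Both rose with L-DOPA alone (1.32 ± 0.21, adjusted p = 0.039, and 1.48 ± 0.17, adjusted p = 0.016), and neither difference between L-DOPA with zonisamide and L-DOPA passed (-0.15 ± 0.21 and -0.60 ± 0.17).

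The rest of the 10 named genes with the smallest p among the higher ones did not overlap between groups. Choice by smallest p favours this, and 6.59% of all features were higher without overlap. All of these genes but Lrrc27 were well above background on all 6 arrays. Acsl5, an acyl-CoA synthetase, had a change of 0.62 ± 0.13, and Rgs7, a regulator of G protein signalling in neurons, one of 0.84 ± 0.18. Camkk1, a kinase that activates calcium/calmodulin-dependent kinases, had a change of 0.77 ± 0.17. Gpr83, an orphan-type receptor found in striatum, had one of 0.70 ± 0.16, and Cebpb, a transcription factor of inflammation and metabolism, one of 1.00 ± 0.23. Lrrc27 was well above background on 1 of 3 saline arrays (1.20 ± 0.26). Pdyn, the tenth, is described with the spiny neuron genes.

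**Figure D2:**
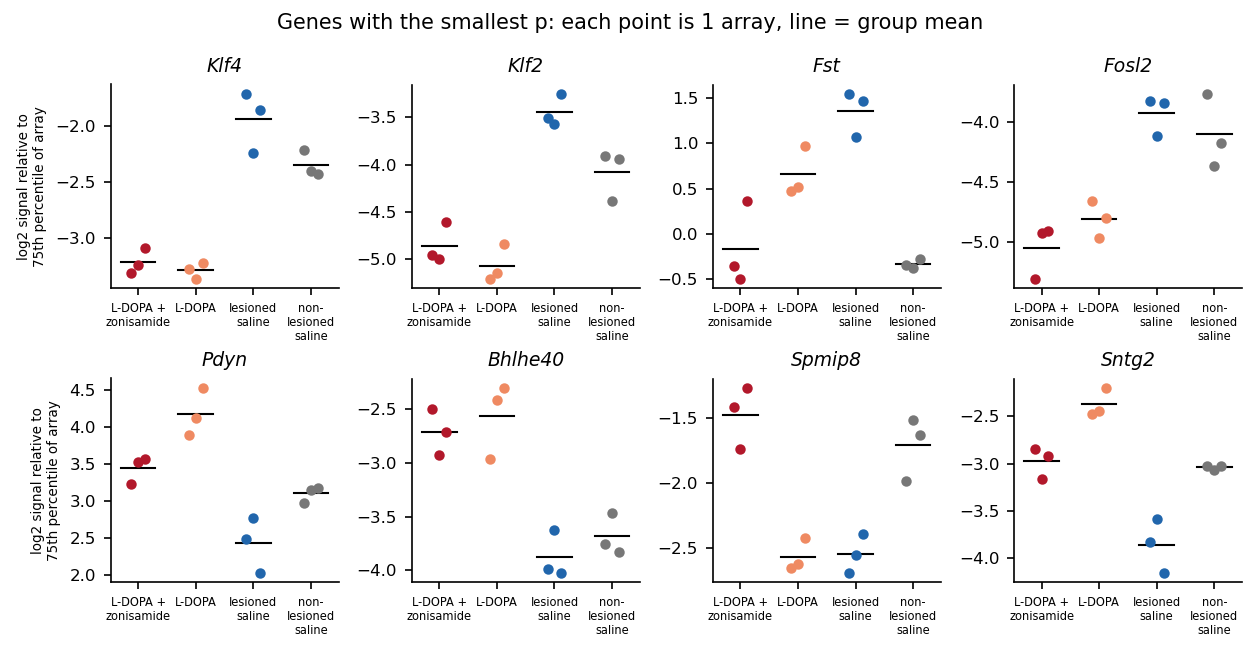
Log2 signal relative to each array's 75th percentile (y axis) of 8 genes, with 1 point per array in the 4 groups and the group mean as a line. The 8 are among the genes of smallest p, a choice that favours groups lying apart. The arrays with both drugs lie below all lesioned saline arrays for Klf4, Klf2, Fst and Fosl2 and above them for Pdyn, Bhlhe40, Spmip8 and Sntg2; for Spmip8 the L-DOPA arrays lie with saline, and for Klf4 and Klf2 with the arrays given both drugs.

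Activity-regulated transcription factors were mostly lower after both drugs. These genes are switched on within minutes of calcium entry or growth factor signalling, and their RNA decays quickly. Of the 12 AP-1 factors, the Fos, Jun and Atf proteins that bind DNA as pairs, 7 were tested. Of these, 1 had a higher and 6 a lower mean, with a median log2 change of -0.59, and 3 were lower at an unadjusted p under 0.05, against 5.45% of all features. Fosl2 was at -5.31, -4.93 and -4.91 with both drugs and at -3.83, -4.12 and -3.85 with saline (-1.12 ± 0.19). Fos was at -4.32, -3.47 and -4.03 with both drugs and at -2.78, -3.11 and -2.66 with saline (-1.09 ± 0.32). Atf3 had a change of -0.85 ± 0.37 and overlapped between groups, and Mafk one of -0.59 ± 0.37 without overlap. With L-DOPA alone, against the same saline arrays, the list median was 0.01. There the changes were -0.88 ± 0.19 for Fosl2, -0.61 ± 0.32 for Fos, 0.01 ± 0.37 for Atf3 and -1.37 ± 0.37 for Mafk, and none passed. The AP-1 median was -0.31 with quantile normalization (2 higher and 5 lower) and -0.18 with normexp and quantile normalization (1 higher and 6 lower). Fosl1 was not well above background on any array with both drugs and was not tested, and Fosb and Junb are not analysed here.

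The 19 Egr, Nr4a, Kruppel-like and Arc activity genes were all tested; 6 had a higher and 13 a lower mean, with a median of -0.32. Under quantile normalization 7 were higher and 12 lower (median -0.09), and without replicate 3 of the drug group also 7 and 12 (median -0.54). Of the 19, 7 were lower and 0 higher at an unadjusted p under 0.05, against 5.45% and 1.96% of all features, and 6 were lower without overlap, against 11.8%. Nr4a1, an orphan nuclear receptor induced by dopamine loss and by activity, was at 0.77, 1.31 and 0.15 with both drugs and at 2.09, 1.91 and 2.20 with saline (-1.32 ± 0.29). Btg2, an antiproliferative early gene, was at -2.26, -2.82 and -2.51 with both drugs and at -1.86, -1.87 and -1.94 with saline (-0.64 ± 0.15). Nr4a3 had a change of -1.15 ± 0.32 and Egr2, which overlapped between groups, one of -1.42 ± 0.59. Arc, which encodes a protein of active synapses, was at 1.70, 2.30 and 2.40 with both drugs and at 2.93, 2.74 and 3.01 with saline (-0.75 ± 0.27). Egr1 (0.22 ± 0.31), Npas4 (-0.32 ± 0.38) and Homer1 (0.08 ± 0.16) overlapped between groups. With L-DOPA alone, against the same saline arrays, the list median was 0.02. There the changes were -0.51 ± 0.29 for Nr4a1, -0.50 ± 0.15 for Btg2 and -0.69 ± 0.32 for Nr4a3. Egr2 had one of -1.28 ± 0.59 and Arc one of 0.004 ± 0.27, and none of these passed. For the 13 of these 19 genes that have an entry in a table of RefSeq promoters (GRCr8), the 250 bases before the annotated start were searched on both strands for TGACG, the core of cAMP response elements. It was found in 7 of the 13, against 18.2% of 33469 promoters. The full palindrome TGACGTCA, which holds the core on both strands, was found in 2 of the 13, against 1.59%. Klf4 held neither, and Egr1, which was not lower (0.22 ± 0.31), held 2 cores. The 13 were listed as activity genes, so these shares describe that list and not the drugs. Whether the cores go with the changes after both drugs was not tested. The stretches of Nr4a1 and Btg2 are shown because these genes were lower with both drugs and hold the most cores and a full palindrome, with the matches in capitals (CGTCA is the core on the other strand).
Nr4a1, chr7:134259888-134260137, plus strand: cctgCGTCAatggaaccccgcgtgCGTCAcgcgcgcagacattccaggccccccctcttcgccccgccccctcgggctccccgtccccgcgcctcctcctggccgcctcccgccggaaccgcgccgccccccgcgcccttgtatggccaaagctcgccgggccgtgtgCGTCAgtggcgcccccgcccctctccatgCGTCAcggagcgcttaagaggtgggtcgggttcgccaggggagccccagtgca
Btg2, chr13:48087691-48087940, minus strand: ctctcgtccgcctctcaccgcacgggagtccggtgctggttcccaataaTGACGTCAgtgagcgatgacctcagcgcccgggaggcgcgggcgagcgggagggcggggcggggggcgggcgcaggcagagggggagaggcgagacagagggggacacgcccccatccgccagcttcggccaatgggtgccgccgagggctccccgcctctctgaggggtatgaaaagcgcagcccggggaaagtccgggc
Nr4a1 held 4 cores, the nearest 53 bases before the start, and Btg2 held 1 full palindrome.

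Feedback genes of the MAP kinase pathway and later activity genes did not lean one way. Of 16 MAP kinase phosphatase and feedback genes tested 7 were higher and 9 lower (median -0.14), and under quantile normalization 9 were higher and 7 lower (median 0.02); without replicate 3 of the drug group the median was -0.01. Gadd45b, a stress-induced demethylation factor, was at 0.24, -0.29 and -0.33 with both drugs, 0.43, 0.34 and 0.59 with saline and 0.85, 1.51 and 1.43 with L-DOPA alone. Its change was -0.58 ± 0.21 against saline and -1.39 ± 0.21 against L-DOPA, where it passed (adjusted p = 0.038, limma). Dusp6, a phosphatase that shuts off ERK, had a change of 0.47 ± 0.21 against saline. Of 18 later activity genes tested 8 were higher and 10 lower (median -0.03; 11 and 7 under quantile normalization, 6 and 12 without replicate 1 of the drug group). Nptx1, a neuronal pentraxin that clusters glutamate receptors, had a value of -0.31 ± 0.29 against saline and fell against L-DOPA (-1.76 ± 0.29, adjusted p = 0.046). Nptx2 had values of -0.42 ± 0.34 and -0.92 ± 0.34 in these comparisons. Bdnf was not well above background on enough arrays to be tested.

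Genes of the direct-pathway spiny neuron were higher after both drugs. All 8 that were tested of 9 had a higher mean, with a median log2 change of 0.26, against 43.4% higher and a median of -0.05 over all features. Quantile normalization also gave 8 of 8 (median 0.36), normexp and quantile normalization gave 6 of 8, and leaving out replicate 1 of the drug group gave 7 of 8 (median 0.41). At an unadjusted p under 0.05, 3 of the 8 were higher, against 1.96% of all features. Pdyn, the precursor of dynorphin, was at 3.24, 3.52 and 3.57 with both drugs and at 2.48, 2.78 and 2.03 with saline (1.01 ± 0.22, adjusted p = 0.49, limma), a level 2.02 times that of saline. L-DOPA alone gave 3.89, 4.12 and 4.53, and there Pdyn rose (1.75 ± 0.22, adjusted p = 0.018). The arrays with both drugs lay below all L-DOPA arrays, but the difference did not pass (-0.74 ± 0.22, adjusted p = 0.21). Tac1, the precursor of substance P, was at 4.69, 5.46 and 5.29 with both drugs and at 4.53, 4.62 and 4.06 with saline (0.74 ± 0.24). Ebf1, a transcription factor of these neurons, had a change of 0.36 ± 0.16, and the muscarinic receptor Chrm4 one of 0.40 ± 0.33 with overlap. Drd1 itself, the D1 receptor, had a value of 0.10 ± 0.20.

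Of the 7 indirect-pathway genes 5 were tested, with 1 higher and 4 lower (median -0.20; 3 higher and 2 lower with normexp and quantile normalization; median -0.12 without replicate 3 of the drug group). Penk, the enkephalin precursor, was at 4.30, 4.48 and 4.20 with both drugs and at 5.0, 4.81 and 5.19 with saline (-0.67 ± 0.21, adjusted p = 0.625, limma). L-DOPA alone had Penk at 4.49, 5.07 and 5.31 and the non-lesioned side at 4.51, 4.28 and 4.16, so the arrays with both drugs lay with the non-lesioned ones. The difference from L-DOPA did not pass (-0.63 ± 0.21, adjusted p = 0.27). Drd2 (-0.20 ± 0.21), the adenosine receptor Adora2a (-0.13 ± 0.22) and the transcription factor Six3 (-0.31 ± 0.32) overlapped between groups. Of 11 tested genes shared by both kinds of spiny neuron 2 were higher and 9 lower (median -0.16), and without replicate 1 of L-DOPA with zonisamide 7 were higher and 4 lower (median 0.08). Rgs9, a striatal regulator of G protein signalling, had a change of -0.49 ± 0.24 without overlap, Foxp1 one of -0.40 ± 0.28 and Pde1b one of 0.25 ± 0.24. Ppp1r1b, which encodes DARPP-32, had a value of -0.06 ± 0.26. Gad1, the enzyme of GABA synthesis, was at 4.16, 4.68 and 4.37 with both drugs and at 5.01, 4.78 and 4.79 with saline (-0.46 ± 0.26).

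**Figure D3:**
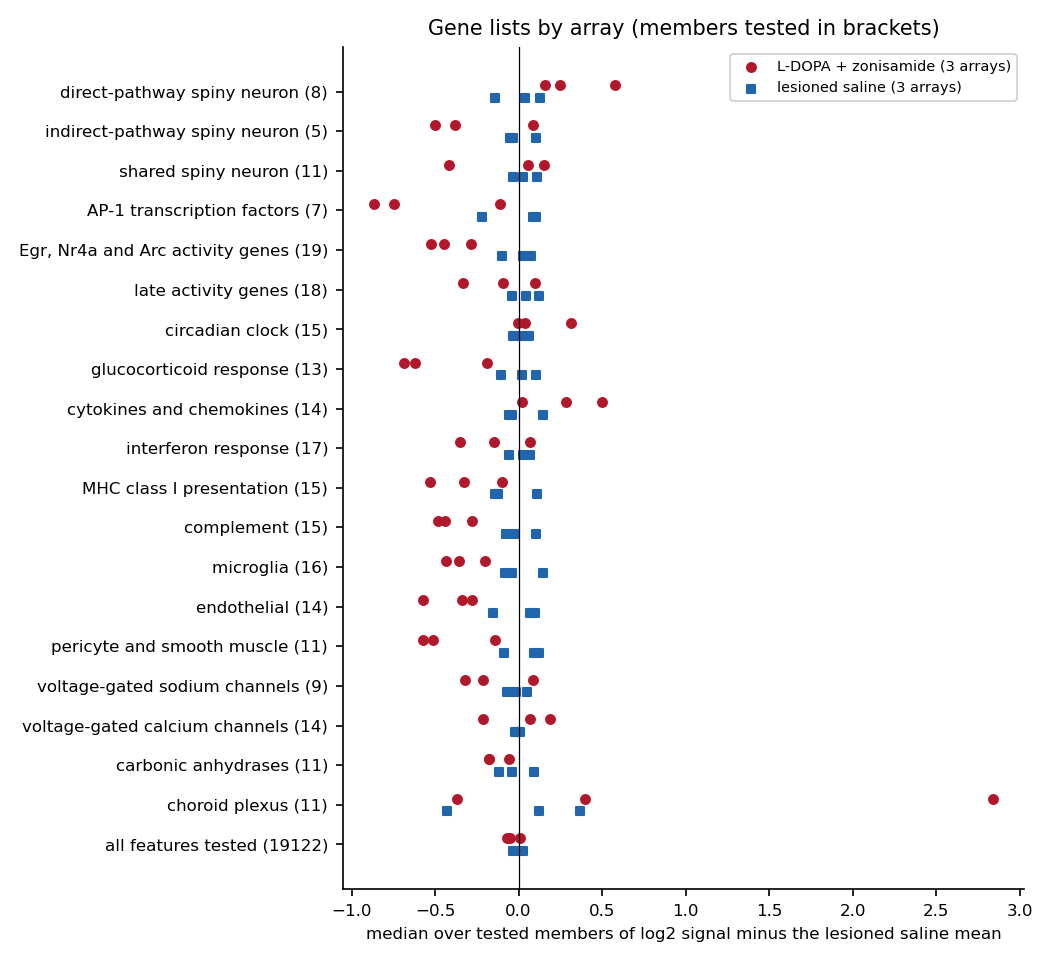
For 19 gene lists and all features, the median over tested members of the log2 signal minus the lesioned saline mean (x axis), with 1 circle per L-DOPA with zonisamide array and 1 square per lesioned saline array. The direct-pathway circles lie to the right of all its squares, the circles of the microglial, endothelial and glucocorticoid lists lie to the left, and the choroid plexus has 1 circle far to the right.

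Several clock genes differed in opposite directions after both drugs. The circadian clock is a feedback loop in which Clock and Bmal1 drive the Per, Cry, Nr1d and Dbp genes. Of 15 clock genes tested 8 were higher and 7 lower (median 0.05; 0.19 without replicate 3 of the drug group). At an unadjusted p under 0.05, 5 were higher and 1 lower, against 1.96% and 5.45% of all features, and 7 did not overlap, against 18.4% of all features. Besides Bhlhe40, Nr1d1, the repressor REV-ERB alpha, was at -1.44, -1.42 and -1.43 with both drugs and at -1.91, -1.97 and -2.08 with saline (0.56 ± 0.17). Per2 was at -1.86, -0.92 and -1.70 with both drugs and at -2.09, -2.08 and -2.14 with saline (0.61 ± 0.23). Dbp was at 5.39, 5.77 and 5.65 with both drugs and at 5.14, 5.21 and 5.10 with saline (0.45 ± 0.18). Nr1d2 had a change of 0.43 ± 0.16. Nfil3, a repressor that opposes Dbp at the same DNA sites, was lower, at -3.35, -3.59 and -3.21 with both drugs and at -2.15, -2.32 and -2.26 with saline (-1.14 ± 0.33). With L-DOPA alone the changes were 0.01 ± 0.17 for Nr1d1, 0.24 ± 0.23 for Per2, -0.15 ± 0.18 for Dbp and -1.14 ± 0.33 for Nfil3, and none of the differences between the drug groups passed. The time of day of tissue collection is not given in the labels, and its part was not tested.

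Genes that glucocorticoids induce in many tissues were mostly lower. Of 13 tested 2 were higher and 11 lower (median -0.41; -0.23 after quantile normalization and -0.06 after normexp before it, with the same split). Of the 13, 5 were lower and 0 higher at an unadjusted p under 0.05, against 5.45% and 1.96% of all features. Without overlap, 6 were lower and 2 higher, against 11.8% and 6.59%. Angptl4, a secreted inhibitor of lipoprotein lipase, was at -0.90, -0.63 and -0.60 with both drugs and at 0.11, 0.11 and 0.30 with saline (-0.88 ± 0.18). Ddit4, an inhibitor of mTOR, was at 0.75, 0.96 and 1.46 with both drugs and at 1.68, 1.85 and 2.05 with saline (-0.81 ± 0.20). Sgk1, a kinase that acts on ion channels, was at -0.80, -0.37 and -0.61 with both drugs and at 0.11, 0.46 and 0.43 with saline (-0.93 ± 0.26). The groups did not overlap for any of these. Nfkbia, the inhibitor of NF-kappaB, had a change of -1.46 ± 0.46 and was lowest on replicate 3 of L-DOPA with zonisamide (-2.24, against -0.74 and -0.12 on the others of its group). Sgk1 and Ddit4 were as low with L-DOPA alone (-1.31 ± 0.26 and -0.77 ± 0.20), where they did not pass either.

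**Figure D4:**
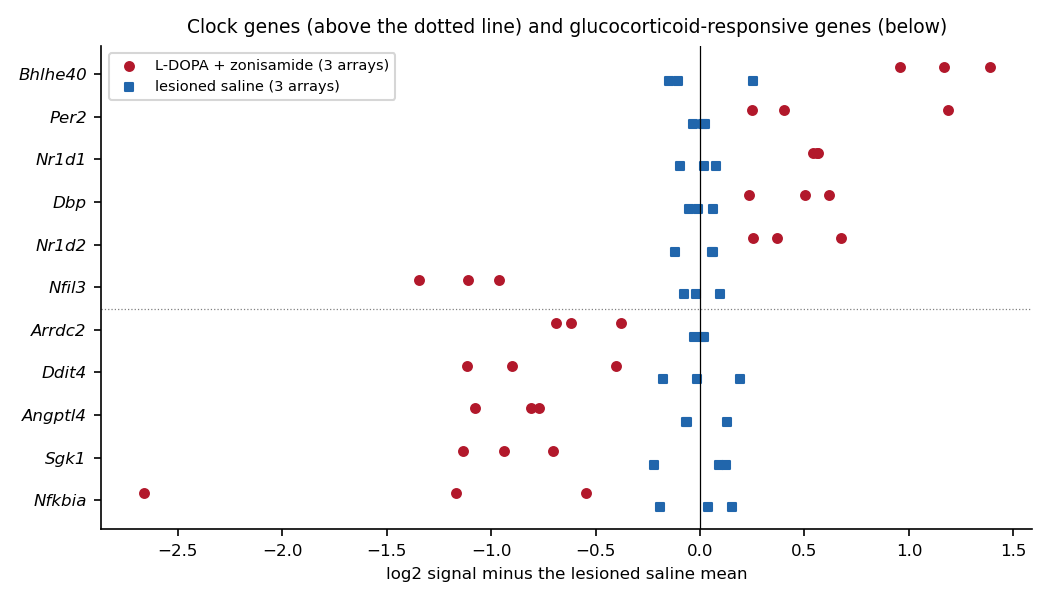
Log2 signal minus the lesioned saline mean (x axis) of 6 clock genes, above the dotted line, and 5 glucocorticoid-responsive genes, below it, with 1 circle per L-DOPA with zonisamide array and 1 square per lesioned saline array. The 11 genes were chosen for small unadjusted p, which favours circles and squares not overlapping, as is the case for all of them. Among the 6 clock genes shown Nfil3 alone lies to the left. Of the 15 clock genes tested 7 were lower, 2 of them without overlap.

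Inflammatory genes did not lean one way. Cytokines and chemokines were higher: of 14 tested 10 had a higher mean (median 0.25), and 4 were higher at an unadjusted p under 0.05, against 1.96% of all features. Ccl2, which attracts monocytes, was at -5.49, -6.11 and -5.33 with both drugs and at -6.98, -6.39 and -7.13 with saline, where 1 of 3 arrays was well above background (1.19 ± 0.40). Tnf was at -3.11, -3.33 and -3.69 with both drugs and at -3.97, -4.89 and -4.23 with saline (0.98 ± 0.40). Cxcl10 (1.05 ± 0.43) and Il1a (0.75 ± 0.33) overlapped between groups. The median of the list was 0.07 without replicate 3 of L-DOPA with zonisamide.

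Microglial markers were lower, and several complement genes were too. Of 15 complement genes tested 5 were higher and 10 lower (median -0.21; 8 higher and 7 lower with normexp and quantile normalization; median -0.43 without replicate 1 of the drug group), against 43.4% higher over all features. At an unadjusted p under 0.05, 4 of the 15 were lower, against 5.45% of all features. C4a was at 0.21, 0.23 and -0.04 with both drugs and at 0.74, 0.75 and 1.42 with saline (-0.84 ± 0.22), with the non-lesioned side at 0.49, 0.28 and 0.16. Cfb (-0.58 ± 0.20), the inhibitor Serping1 (-0.73 ± 0.28) and C1qc (-0.57 ± 0.24) did not overlap either. All 16 microglial markers had a lower mean with both drugs, with a median of -0.30, 4 of them at an unadjusted p under 0.05 (5.45% of all features) and 7 without overlap (11.8%). With quantile normalization 15 of 16 were lower (median -0.24), and with normexp and quantile normalization 12 of 16 (median -0.20). Csf1r, the receptor that microglia need to survive, had a change of -0.95 ± 0.34 with overlap, and Tyrobp and Trem2, which signal together, had changes of -0.80 ± 0.31 and -0.43 ± 0.19 without overlap.

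Antigen presentation genes leaned lower than saline after both drugs, and Tap2 among them differed from L-DOPA alone. Of 15 genes of MHC class I presentation tested 2 were higher and 13 lower with both drugs (median -0.27), none at an unadjusted p under 0.05 and none without overlap, and the median with L-DOPA alone was 0.60; these comparisons share the saline arrays. Tap2, which pumps peptides into the endoplasmic reticulum, was at -1.88, -2.08 and -2.19 with both drugs, -1.70, -1.92 and -1.72 with saline and -0.70, -0.42 and -0.87 with L-DOPA alone. The direct test of L-DOPA with zonisamide against L-DOPA gave a fall of Tap2 (-1.39 ± 0.19, adjusted p = 0.029, limma). RT1-CE5, a class I heavy chain that shares sequence with its paralogs, was at -1.34, -1.58 and -1.56 with both drugs and at -1.37, -1.18 and -0.49 with saline (-0.48 ± 0.28). Tapbp (-0.29 ± 0.17) and Psmb10 (-0.26 ± 0.18) overlapped between groups. Of 17 interferon-response genes 6 were higher and 11 lower (median -0.05), 12 higher and 5 lower with quantile normalization, and 4 higher and 13 lower (median -0.29) without replicate 1 of the drug group. Gbp2, an interferon-induced GTPase, had a change of -0.46 ± 0.22 against saline and fell against L-DOPA (-1.53 ± 0.22, adjusted p = 0.031). Mx1 had a value of -0.57 ± 0.39 and Irf9 one of -0.25 ± 0.21.

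Markers of blood vessels were lower. All 14 endothelial genes tested of 16 had a lower mean with both drugs (median -0.32), 3 at an unadjusted p under 0.05 (5.45% of all features) and 5 without overlap (11.8%). Cldn5, a tight junction protein of the blood-brain barrier, was at 0.58, 0.38 and 0.39 with both drugs and at 1.40, 0.92 and 1.04 with saline (-0.67 ± 0.19). Pecam1 (-0.47 ± 0.19) and the glucose transporter Slc2a1 (-0.38 ± 0.15) did not overlap either, and Aplnr, the apelin receptor, had a change of -0.81 ± 0.41 and was well above background on 2 of 3 arrays with both drugs. Against L-DOPA alone the values were -0.92 ± 0.19 for Cldn5 and -0.93 ± 0.19 for Pecam1, and neither passed (adjusted p = 0.073 and 0.074, limma). Pericyte and smooth muscle genes were lower too, 11 of 11 tested (median -0.33): Rgs5 had a change of -0.56 ± 0.20, Acta2 one of -0.49 ± 0.20, Abcc9 one of -0.61 ± 0.26 and Notch3 one of -0.59 ± 0.44. With quantile normalization 13 of 14 endothelial and 10 of 11 pericyte genes were lower, and with normexp and quantile normalization 11 of 14 and 8 of 11. The haemoglobin transcripts Hba-a1 (4.88, 5.30 and 5.04 with both drugs and 5.61, 5.68 and 5.57 with saline) and Hbb (3.85, 4.19 and 2.74 with both drugs and 4.59, 4.25 and 4.52 with saline) were lower too. The blood cell list as a whole was split 3 higher and 5 lower (median -0.26; -0.08 without replicate 1 of the drug group and -0.47 without replicate 3 of the drug group), with Hba-a3 at 2.62 ± 1.29. Haemoglobin genes share sequence, so their probes are uncertain, and their part in the vessel values was not tested.

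Lists of other glia lay close to all features. Homeostatic astrocyte genes were split 8 higher and 7 lower (median 0.03; 11 and 4 with quantile normalization, 3 and 12 without replicate 3 of L-DOPA with zonisamide), with Gjb6 at 0.24 ± 0.15, Aldoc at -0.28 ± 0.21, Slco1c1 at -0.52 ± 0.44 and Mfge8 at 0.22 ± 0.22, and reactive astrocyte genes 9 and 9 (median 0.02; 11 and 7 with quantile normalization). In the reactive list, Srgn (-0.54 ± 0.17), Tm4sf1 (-0.47 ± 0.19) and Tgm1 (-0.60 ± 0.25) were lower at an unadjusted p under 0.05 and Cxcl10, described above, was higher, against 5.45% and 1.96% of all features; Tgm1 was well above background on 2 of 3 arrays with both drugs. Of 18 oligodendrocyte genes 4 were higher and 14 lower (median -0.12; -0.20 without replicate 3 of the drug group), none at an unadjusted p under 0.05, with Ugt8 at -0.53 ± 0.30, Cnp at -0.65 ± 0.39, Mbp at -0.73 ± 0.50 and Ermn, well above background on 2 of 3 arrays with both drugs, at -1.15 ± 0.81.

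The known targets of zonisamide and the genes of dopamine handling gave no feature at an unadjusted p under 0.05. Of 9 voltage-gated sodium channel genes 3 were higher and 6 lower (median -0.19; -0.07 without replicate 3 of the drug group). Scn2b (-0.72 ± 0.47), Scn3b (0.23 ± 0.21) and Scn1a (-0.82 ± 0.76, at -2.81 on replicate 3 of L-DOPA with zonisamide) overlapped between groups, and Scn9a did not (-0.59 ± 0.47). Calcium channel genes were split 6 higher and 8 lower (median -0.02), and 10 and 4 with quantile normalization. Of the T-type channels, Cacna1g was at -0.48, -3.46 and -3.29 with both drugs and at -3.11, -2.77 and -3.40 with saline (0.68 ± 0.77), the high value being replicate 1, the array with the high thalamic markers. Cacna1i was at 0.07, 0.12 and -0.43 with both drugs and at 0.01, 0.20 and 1.00 with saline (-0.48 ± 0.29), and Cacna1h is not analysed here. Cacna2d1 (0.32 ± 0.18), Cacnb3 (-0.20 ± 0.18) and Cacng3 (0.34 ± 0.35) also overlapped. Of 11 carbonic anhydrases 3 were higher and 8 lower (median -0.19; -0.00 with quantile normalization, -0.11 without replicate 1 of the drug group). Car2, the main brain form, was at 1.54, 1.31 and 1.51 with both drugs and at 1.60, 1.71 and 2.07 with saline (-0.34 ± 0.17), and Car1 (-0.56 ± 0.31), Car7 (0.50 ± 0.27) and Car4 (-0.38 ± 0.31) overlapped. Maob, which encodes monoamine oxidase B, was at -0.73, -0.74 and -0.54 with both drugs and at -0.54, -0.77 and -0.48 with saline (-0.07 ± 0.17).

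Of 10 dopamine genes tested 3 were higher and 7 lower (median -0.10), and 5 and 5 with quantile normalization. Th, the rate-limiting enzyme of dopamine synthesis, was at -1.18, -1.83 and -2.22 with both drugs and at -1.36, -1.43 and -0.51 with saline (-0.64 ± 0.31). Maoa had a change of 0.37 ± 0.20 without overlap and the D5 receptor Drd5 one of -0.41 ± 0.24. Among opioid and tachykinin receptors, Tacr3, the neurokinin B receptor, was at -3.08, -2.0 and -2.76 with both drugs, -3.26, -4.81 and -3.94 with saline and -1.76, -2.30 and -2.49 on the non-lesioned side (1.39 ± 0.52 against saline). It was the only one of the 6 tested with an unadjusted p under 0.05. Tacr1 (-0.32 ± 0.21) did not overlap, and Oprm1 (0.44 ± 0.34) and Oprd1 (-0.21 ± 0.28) did.

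Of the genes singled out for L-DOPA alone in these data, Klf4, Klf2, Bhlhe40 and Sntg2 are given above. Svop, Nat8f1 and Tspoap1 differed between the drug groups. The genes of this and the next paragraph were singled out in earlier work on these same L-DOPA arrays. Their tests against L-DOPA are not independent of that choice, which by itself favours a difference from those arrays. Svop, a synaptic vesicle protein, was at 0.42, 0.41 and 0.42 with both drugs, 0.25, 0.16 and -0.39 with saline and -0.94, -1.30 and -1.06 with L-DOPA alone. Svop rose against L-DOPA (1.52 ± 0.19, adjusted p = 0.022, limma), and its value against saline was 0.41 ± 0.19. Nat8f1, an acetyltransferase family gene, was at -1.81, -2.01 and -1.53 with both drugs, -1.64, -1.75 and -1.65 with saline and -2.71, -3.26 and -3.11 with L-DOPA alone. It rose against L-DOPA (1.24 ± 0.18, adjusted p = 0.031) and had a value of -0.10 ± 0.18 against saline. Tspoap1, a presynaptic scaffold protein, likewise rose against L-DOPA (1.32 ± 0.22, adjusted p = 0.046), with 0.05 ± 0.22 against saline.

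Slc39a12, a zinc transporter of glia, was at -2.90, -3.35 and -3.33 with both drugs, -2.71, -1.34 and -2.61 with saline and -0.55, 0.06 and -0.28 with L-DOPA alone. It fell against L-DOPA (-2.94 ± 0.41, adjusted p = 0.029, limma), with -0.97 ± 0.41 against saline. For 4 further genes neither difference of the arrays with both drugs passed. Wnt10a, a secreted Wnt ligand, was at -2.02, -4.76 and -2.67 with both drugs, -4.32, -3.24 and -4.70 with saline and -0.54, -0.17 and 0.56 with L-DOPA alone, and its differences were 0.93 ± 0.63 from saline and -3.10 ± 0.63 from L-DOPA (adjusted p = 0.074). Timp1, an inhibitor of matrix proteases, had differences of 0.60 ± 0.56 and -2.61 ± 0.56 (adjusted p = 0.088). The monocarboxylate transporter Slc16a1 had -0.39 ± 0.30 and 1.47 ± 0.30 (adjusted p = 0.073), and the trophic factor Gdnf had -0.37 ± 0.27 and 1.21 ± 0.27 (adjusted p = 0.091).

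A further 6 genes of low signal that were well above background on all 3 arrays with L-DOPA alone were not tested here, because fewer than 3 arrays of either group reached background. Cimap2, Meox1 and Prdm1 were above background on 0 of 3 arrays with both drugs and 0 of 3 with saline. Sucnr1, the succinate receptor, was above background on 0 arrays with both drugs and 1 with saline, Cryba2, a lens crystallin, on 1 and 0, and Gprc5a, an orphan receptor induced by retinoic acid, on 2 and 1.

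**Figure D5:**
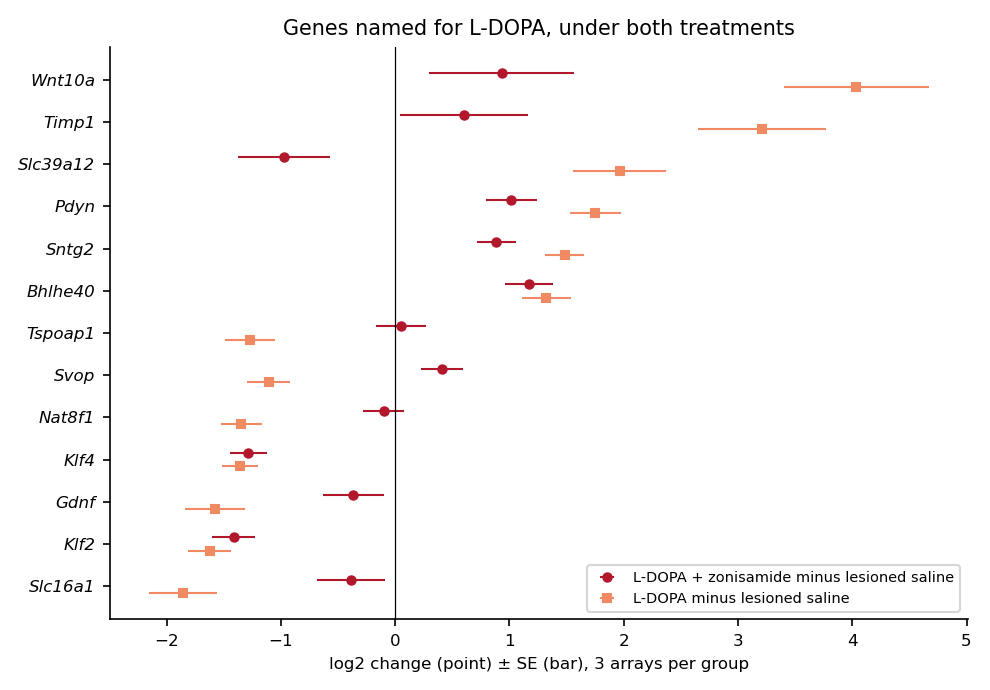
Log2 change from lesioned saline with its standard error (x axis) for 13 genes, with circles for L-DOPA with zonisamide and squares for L-DOPA alone, 3 arrays per group and the same saline arrays in both. Circle and square lie together for Klf4, Klf2 and Bhlhe40, and apart for Slc39a12 (-0.97 and 1.96) and Svop (0.41 and -1.11).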

How the data were processed

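Agilent 1-colour arrays measured RNA of 12 rat striata. Per the file headers, the deposited intensity values are the authors' background-subtracted, detrended signals from Agilent Feature Extraction (10.7 in the submitters' processing notes), not scaled between arrays. From these, log2 intensity minus the array's 75th percentile was computed here, without control spots and outlier spots. Spots of a probe were averaged, and a probe was kept if at least a share of 0.5 of its spots was well above background on all 3 arrays of either compared group. The brightest probe stood for a gene. Symbols were assigned by matching the accession that the array files give for each probe to a RefSeq gene reference. By this match 17328 of 30367 probes have 1 symbol and the rest none. This left 19122 features, 10922 of them with a symbol. One limma model (3.58.1, R 4.3.3) of 12 arrays in 4 groups, with 8 residual degrees of freedom, gave all tests, two-sided, with Benjamini-Hochberg adjustment at 0.05; it was tested on simulated data. Groups are those of the labels. That the replicates are separate animals rests on the study's design text, and otherwise p-values measure only the spread between these samples. The members and lists were chosen with earlier results of these data known. Named genes are the 10 of smallest p in each direction, the 4 of smallest p in each list, markers of striatal neurons and drug targets, and genes singled out for L-DOPA in earlier work on these data. In 19 alternatives the scaling, filter, probe rule, arrays and model terms were changed; normexp came together with quantile normalization, and the intensity trend with a robust prior. Some members of the lists are not reported here.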

Additional observations from a re-analysis of the deposited data

How the results depend on the processing

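Among 19 alternatives, limma called 0 features in all but these: without replicate 1 of L-DOPA with zonisamide 3 were lower, among them Tymp (-1.61 ± 0.45 with all arrays), and without replicate 3 of lesioned saline 1 was higher, Erp27 (1.36 ± 0.69 with all arrays), so leaving out arrays gave 0 to 3. Tymp and Erp27 were chosen after their values were seen. Erp27 was at -6.53, -6.66 and -6.33 with both drugs and at -8.90, -8.95 and -5.76 with saline. It was well above background on 1 of 3 saline arrays, so it was kept only through the arrays with both drugs. The saline array left out lay above all of those. The count at an unadjusted p under 0.05 ran from 590 to 1764 when arrays were left out, and was 794 with the slide as a fixed block, 1527 with it as a random block, 833 with Ttr as a covariate and 1532 with the replicate number as a block, which called 0. Replicate 3 of either group shared a slide with no array of the other, so within slides the groups met only in replicates 1 and 2. The labels state no pairing by replicate number, and deviations from the mean of 3 arrays cannot settle it. Same-numbered deviations correlated at 0.09, -0.19 and -0.18, and not every array correlated best with its own number. The cause of these moves was not tested. The alternatives were examined for the comparison with lesioned saline only, so the calls against L-DOPA and those of L-DOPA alone were not checked in them. No gene had passed against lesioned saline, and some log2 changes in that comparison turned sign. With quantile normalization they were 0.067 (Aldoc), 0.0048 (Nat8f1) and 0.080 (Ppp1r1b). With normexp and quantile normalization they were 0.38 (Aldoc), -0.20 (Drd1), 0.026 (Drd2), 0.0038 (Irf9), 0.20 (Maob), 0.048 (Nat8f1), 0.12 (Oprd1), 0.070 (Ppp1r1b), -0.087 (Scn3b), 0.069 (Six3), 0.018 (Tacr1), 0.035 (Tap2) and -0.73 (Tspoap1). With the mean of a gene's probes it was 0.0011 (Ppp1r1b). With array weights it was -0.32 (Neurod6). With the slide as a block they were 0.0075 (Adora2a), -0.084 (Neurod6), 0.11 (Notch3) and 0.0078 (Oprd1). With Ttr as a covariate they were 0.017 (Maob), 0.14 (Ppp1r1b) and -0.31 (Sostdc1). Without arrays of spot spread over 20% they were 0.22 (Scn1a), 0.034 (Six3) and -0.058 (Tspoap1). Leaving out arrays gave ranges of -0.31 to 0.059 (Adora2a), -0.28 to 1.21 (Cacna1g), -0.19 to 2.36 (Cck), -0.065 to 0.26 (Drd1), -0.025 to 0.21 (Homer1), -0.23 to 0.011 (Nat8f1), -1.07 to 1.03 (Neurod6), -0.43 to 0.096 (Oprd1), -0.21 to 0.14 (Ppp1r1b), -1.39 to 0.22 (Scn1a), -0.48 to 0.034 (Six3), -1.85 to 2.33 (Slc17a6) and -0.058 to 0.16 (Tspoap1). Signal over background limits genes such as Hes1, Ccl2, Lrrc27 and Erp27, which were not well above background on every array, and 3 arrays a group limit all.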

Other observations

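None of the members of the gene groups below passed the test against lesioned saline. Of 23 synaptic vesicle and release genes 13 were higher and 10 lower with both drugs (median log2 change 0.13). Without overlap 6 were higher and 1 lower, against 6.59% and 11.8% of all features. Syngr1, a synaptic vesicle membrane protein, was at -2.06, -2.50 and -2.21 with both drugs and at -2.54, -2.68 and -2.85 with saline (0.44 ± 0.17). Syt2, a calcium sensor of fast release, had a change of 0.53 ± 0.28 and Syn3, a synapsin, one of -0.65 ± 0.33. Of 79 respiratory chain genes 38 were higher and 41 lower (median -0.02, and 54 and 25 with quantile normalization). Without overlap 14 were higher and 2 lower, against 6.59% and 11.8% of all features. At an unadjusted p under 0.05 only 1 was higher and 1 lower, against 1.96% and 5.45%. Sdha, a subunit of succinate dehydrogenase, was at 2.97, 2.73 and 2.91 with both drugs and at 2.32, 2.62 and 2.51 with saline (0.39 ± 0.14), and Cox6a1, a subunit of cytochrome oxidase, had a change of -0.45 ± 0.18 with overlap.

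Of 18 genes of the unfolded protein response 13 were higher and 5 lower (median 0.10; 0.17 without replicate 1 of the drug group). Creld2, a chaperone-associated protein of the endoplasmic reticulum, was at -1.84, -1.59 and -1.87 with both drugs and at -2.29, -2.11 and -2.25 with saline (0.45 ± 0.15). Pdia4, a disulfide isomerase of the same compartment, was lower, with a change of -0.81 ± 0.41. Potassium channel genes were split 40 higher and 35 lower (median 0.05; 52 and 23 with quantile normalization, 34 and 41 without replicate 1 of the drug group). The accessory subunit Kcne4 was at -6.41, -6.74 and -6.68 with both drugs and at -5.99, -5.98 and -5.51 with saline (-0.78 ± 0.22), and Kcna3 had a change of -0.95 ± 0.34. These were the only members at an unadjusted p under 0.05 (2.67%, against 7.41% of all features). Without overlap 1 member was higher and 4 were lower, against 6.59% and 11.8% of all features. Of 46 axon guidance genes 18 were higher and 28 lower (median -0.12; 24 and 22 with quantile normalization). Plxnb3, a semaphorin receptor, was at -1.86, -1.76 and -1.69 with both drugs and at -0.94, -1.20 and -0.88 with saline (-0.77 ± 0.24), and the ephrin Efna4 had a change of -0.94 ± 0.38.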
